A study of Homo sapiens with 10 samples.

Results

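The 39 genes described here encode the cytokines and growth factors of the senescent secretory phenotype: interleukins, chemokines, colony-stimulating factors, ligands of the EGF family, insulin-like growth factor binding proteins (IGFBPs), the plasminogen system and TNF receptors. They were taken by name from a table of 20030 genes, and all 39 are in it. The study treated 3 lines of human liver cancer cells, which its labels call Huh7, PLC and 97H, with a CDK4/6 inhibitor, an XPO1 inhibitor, the combination of both, or vehicle (control), and sequenced their RNA. CDK4 and CDK6 are the kinases that cyclin D uses to start the cell cycle, and XPO1 is the main exporter of proteins from the nucleus. The sample titles call the XPO1 inhibitor KPT330 (selinexor) and leave the CDK4/6 inhibitor unnamed, and the labels give no doses or times. There is 1 library for each line and treatment, 10 in all: PLC and 97H have all 4 treatments, and Huh7 has the CDK4/6 inhibitor and the control. The line is therefore the only replicate of a treatment, and p-values measure how much treatment effects varied between lines.

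Senescent cells stop dividing and secrete a mix of inflammatory cytokines, chemokines, growth factors and proteases. Transcription of many of these genes is driven by NF-kappaB and C/EBP-beta, and interleukin 1 alpha and interleukin 6 are known to feed back on the cells that make them. In liver the secreted factors draw immune cells to senescent cells and act on neighbouring hepatocytes and stellate cells. The series concerns senescence under joint inhibition of both targets, so the question put to these genes is which of them were higher or lower after treatment, and in which line.

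Levels are the authors' FPKM, fragments counted per kilobase of transcript after scaling for library size. Differences are on the log2(FPKM + 1) scale, which understates changes of genes at low FPKM. The limma test was run on 10477 genes whose mean over the 10 libraries reached 1 FPKM, and an adjusted p under 0.05 was called. Of the 39 genes 29 were tested and 10 were not: IL1A, IL6, CXCL10, CSF2, IL11, IL15, PLAT, SERPINB2, STC1 and TNFRSF1B. The highest mean among these 10 was 0.869 FPKM (PLAT), and the lowest mean among the 29 was 1.04 FPKM (FGF2). Read depth is unknown, so levels under 1 FPKM are given with no error. Between the lines library values correlated at 0.684 to 0.800 over all tested genes, against 0.922 to 0.980 between treatments of a line. The PLC control, on which every difference from control in PLC rests, stood somewhat apart: it correlated with the treated PLC libraries at 0.922 to 0.927, against 0.948 to 0.977 among those, and had the fewest genes above 0, 14033, and the lowest relative depth. Hepatocyte markers summed to 5804 to 7679 FPKM in Huh7, 793 to 2000 FPKM in PLC and 61.5 to 100.5 FPKM in 97H. The line 97H thus held little of the hepatocyte programme. Epithelial markers summed to at least 1893 FPKM in every library, mostly from KRT8 and KRT18. EPCAM was at or under 0.241 FPKM in 97H, against 9.11 to 42.6 FPKM in the other lines. CDH1 was at or under 3.05 FPKM in PLC and 97H, against 15.8 and 37.0 FPKM in Huh7.

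The 39 genes spanned a wide range of levels. MIF, a cytokine that holds macrophages in place and also has an enzyme activity, averaged 1441 FPKM and made up 46.3% to 85.3% of the summed level of all 39. Next came IL32 at a mean of 119.7 FPKM, IGFBP4 at 98.6 FPKM and TNFRSF1A at 87.5 FPKM. At the other end IL6, a cytokine commonly used as a readout of the senescent secretory phenotype, stayed at or under 0.107 FPKM in every library and was listed at 0 in all 4 PLC libraries. IL1A, the upstream interleukin, reached 0.353 FPKM in the 97H combination library and was listed at 0 in all Huh7 and PLC libraries. In all, 11 of the 39 genes were at 1 FPKM or more in all 10 libraries and 4 were under 1 FPKM in all 10. Of the 29 tested genes 13 had their highest line mean in PLC, 10 in 97H and 6 in Huh7.

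**Figure D1:**
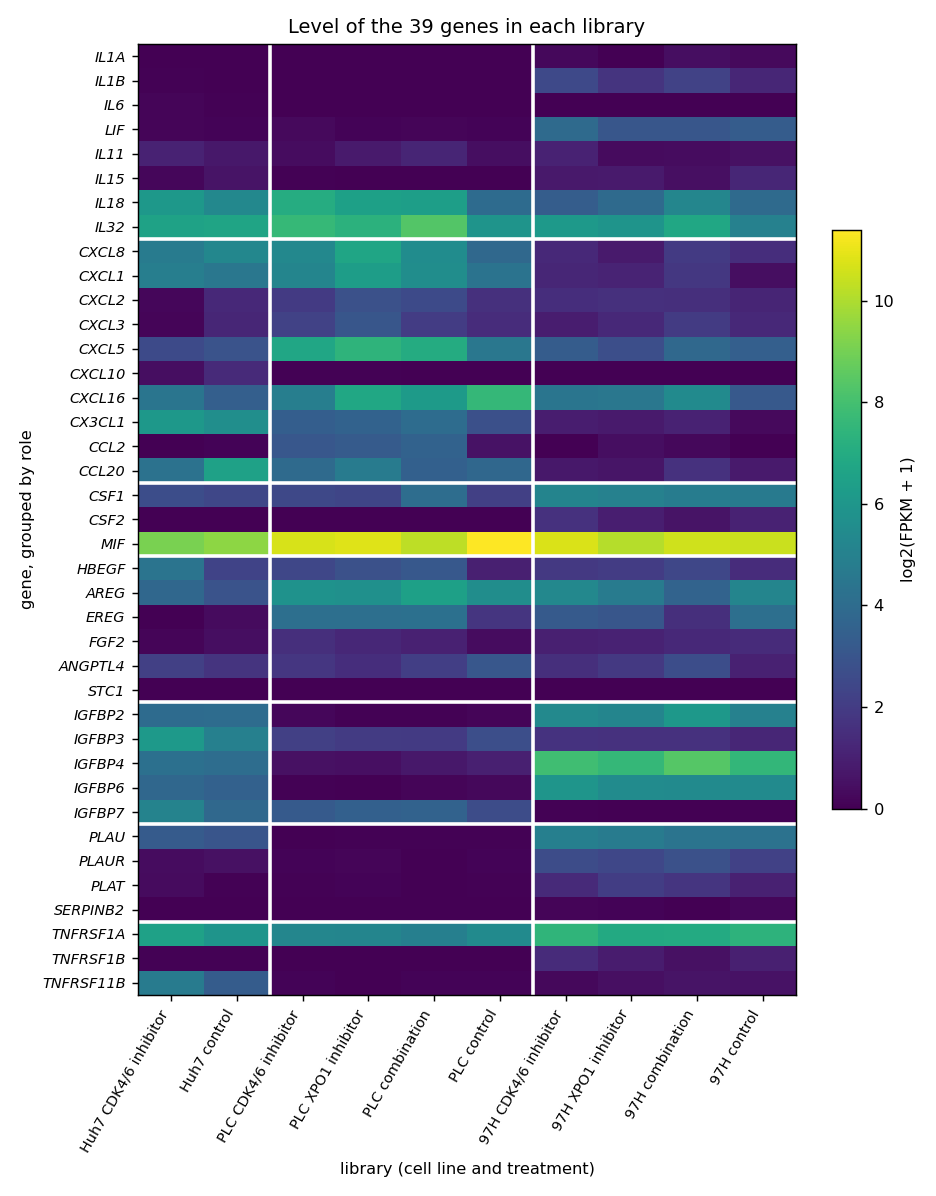
Level of each of the 39 genes (rows, grouped by role) in each of the 10 libraries (columns, grouped by cell line, control last), as log2(FPKM + 1) in colour. IL6 and STC1 are dark in every library, MIF is bright in every library, and IGFBP2, IGFBP4, IGFBP6 and PLAU are bright in all 4 libraries of 97H and dark in all 4 of PLC.

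Of the interleukins, IL32 was the 1 gene of the 39 that passed the test in a comparison of treatments. IL32 (chromosome 16, 3065403 to 3069530, GRCh38.p14) encodes a cytokine that induces TNF and other cytokines in neighbouring cells. In PLC it was at 199.6 FPKM with the CDK4/6 inhibitor, 157 FPKM with the XPO1 inhibitor and 319.9 FPKM with the combination, against 59.2 FPKM in the control. In 97H it was at 69.5, 58.7 and 109.6 FPKM in the same order, against 31.1 FPKM in the control. All 3 treated libraries of PLC and of 97H lay above their own control, and the combination library was the highest in both lines. In Huh7 it was at 93.8 FPKM with the CDK4/6 inhibitor, against 98.2 FPKM in the control, so the raised level under that inhibitor was seen in PLC and 97H and not in Huh7. With the combination IL32 rose by 2.10 on the log2 scale (SE 0.27, limma adjusted p = 0.0228, n = 2 lines), by 2.41 in PLC and 1.79 in 97H. Against its 1 call among 29 genes stand 83 calls among all 10477 tested genes, or 0.792% (0.305% called higher and 0.487% called lower). The call rests on single libraries: the limma adjusted p was 0.0650 without the PLC control, 0.227 without the PLC combination library and 0.173 without the 97H combination library. It was also lost with no filter on low values (limma adjusted p = 0.253), without the cell line as a block (limma adjusted p = 1.0) and without a variance trend (limma adjusted p = 0.0517).

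Each inhibitor alone gave a smaller difference of IL32, and neither passed. The difference was 0.94 with the CDK4/6 inhibitor (SE 0.30, limma adjusted p = 0.492, n = 3 lines) and 1.15 with the XPO1 inhibitor (SE 0.27, limma adjusted p = 0.968, n = 2 lines). No gene at all, of the 29 or of the 10477, was called with either inhibitor alone (0% of all genes in both). At an unadjusted limma p under 0.05 the CDK4/6 inhibitor had 2 of the 29 genes and 8.8% of all tested genes, and the XPO1 inhibitor 4 of the 29 and 2.46% of all tested genes; the combination had 6 of the 29 and 12.4%. Part of the IL32 promoter is shown because it holds 2 matches to a kappaB-like motif, GGANTTTCC, printed in capitals. It is the stretch from 110 to 41 bases before the RefSeq start, plus strand of GRCh38.p14, chr16:3065293-3065362.
IL32: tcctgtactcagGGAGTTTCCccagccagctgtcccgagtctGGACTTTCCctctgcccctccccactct

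IL18 encodes an interleukin 1 family cytokine that is made as a precursor, cut by caspase 1, and induces interferon gamma in lymphocytes. In PLC it was at 132 FPKM with the CDK4/6 inhibitor, 87.9 FPKM with the XPO1 inhibitor and 82.8 FPKM with the combination, against 15.0 FPKM in the control. In 97H it was at 9.12 FPKM with the CDK4/6 inhibitor, 14.3 FPKM with the XPO1 inhibitor and 36.6 FPKM with the combination, against 14.3 FPKM in the control. Every treated PLC library was therefore high, whereas in 97H the combination library was high, the XPO1 library was level with the control and the CDK4/6 library was below it. Huh7 had 66.0 FPKM with the CDK4/6 inhibitor, against 38.7 FPKM in the control. The combination differed from control by 2.39 in PLC and 1.30 in 97H, and by 1.85 overall (SE 0.71, limma adjusted p = 0.329), which did not pass. That overall difference was 0.64 without the PLC control and 3.05 without the 97H control. CASP1, the processing enzyme, stayed at or under 0.0743 FPKM in every library, and the receptor gene IL18R1 at or under 0.364 FPKM.

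Among the other interleukins IL1A, IL1B, IL15 and LIF had their highest line mean in 97H, and IL6 and IL11 in Huh7. IL1B, the secreted inflammatory interleukin, was at 4.76, 2.24 and 3.82 FPKM in 97H with the CDK4/6 inhibitor, the XPO1 inhibitor and the combination, against 1.30 FPKM in the control, and was listed at 0 in all 4 PLC libraries. LIF, which signals through the same receptor subunit as interleukin 6, lay between 7.16 and 14.1 FPKM in 97H and at or under 0.238 FPKM in the 6 other libraries. IL11 and IL15 stayed at or under 1.27 and 1.32 FPKM. Neither IL1B nor LIF passed in a comparison of treatments.

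**Figure D2:**
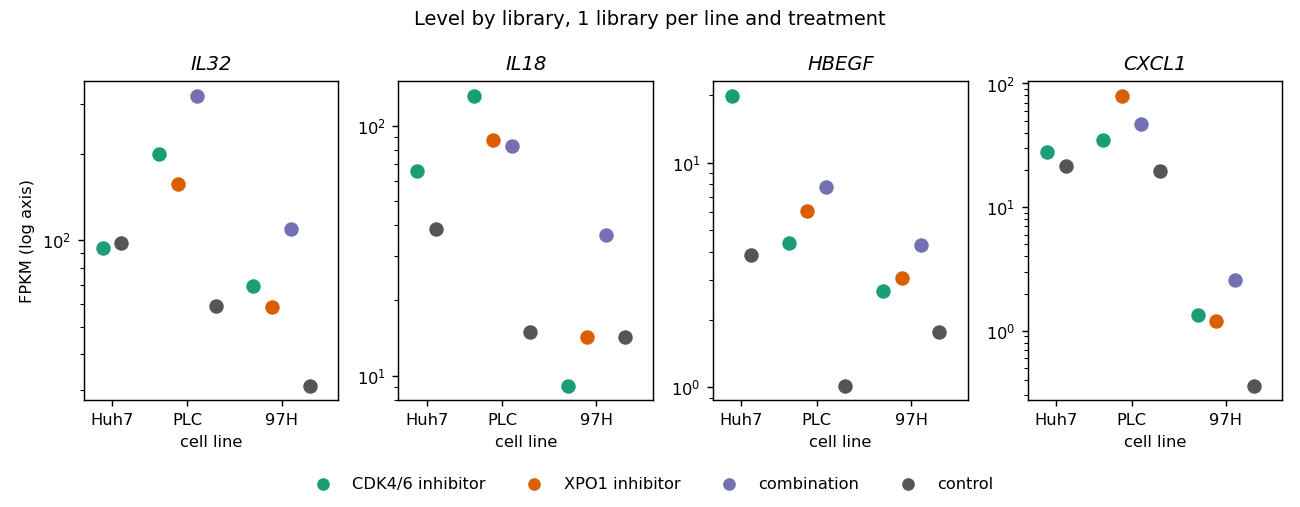
Level of IL32, IL18, HBEGF and CXCL1 in each library (points, FPKM on a log axis), by cell line and treatment, with 1 library per point and the control at the right of each line. In PLC and 97H the combination point of IL32, at 319.9 and 109.6 FPKM, is the highest of its line, and the Huh7 points of IL32 lie side by side.

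Several chemokine genes were high in PLC, low in 97H and higher still in the treated PLC libraries. The neutrophil chemokine genes CXCL8, CXCL1, CXCL5, CXCL3 and CXCL2 lie in that order on chromosome 4, followed by the EGF family ligand genes EREG and AREG, between 73740569 and 74455005 of GRCh38.p14. CXCL8 (interleukin 8) was at 38.8 FPKM in PLC with the CDK4/6 inhibitor, 101 FPKM with the XPO1 inhibitor and 44.9 FPKM with the combination, against 13.4 FPKM in the control. CXCL5 was at 105.8, 168 and 126 FPKM in the same order, against 21.7 FPKM in the control. CXCL1 was at 35.1, 79.9 and 47.4 FPKM, against 19.5 FPKM in the control. For these 3 genes the XPO1 library was the highest of the 4 PLC libraries, and every treated library was above the single control that they share. Such an order was common in PLC: 16 of the 29 tested genes had all 3 treated libraries above that control and 8 had all 3 below it, beside 42.7% and 28.2% of all tested genes. In 97H CXCL8 was at 1.48, 0.778 and 2.87 FPKM, against 1.82 FPKM in the control, and CXCL5 at 8.82, 5.64 and 13.4 FPKM, against 9.99 FPKM in the control. There the treated libraries lay on both sides of the control for both genes. CXCL1 in 97H was at 1.35, 1.19 and 2.57 FPKM, against 0.359 FPKM in the control, all 3 above it. Huh7 held 25.9 FPKM of CXCL8 with the CDK4/6 inhibitor, against 38.1 FPKM in the control, and 27.8 FPKM of CXCL1, against 21.7 FPKM.

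None of these chemokine differences passed the test across lines. CXCL1 had the smallest adjusted p of the chemokine genes with the combination, at a difference of 1.32 with the combination (SE 0.45, limma adjusted p = 0.258), 1.24 in PLC and 1.39 in 97H. It is with IL32 and IL18 one of the 3 genes of 29 (10.3%) past 2-fold above control in both lines with the combination, against 1.79% of all tested genes. With the XPO1 inhibitor CXCL1 differed by 1.34 (SE 0.45, limma adjusted p = 0.968), by 1.98 in PLC and 0.69 in 97H. CXCL5 differed by 1.44 with the combination (SE 0.68, limma adjusted p = 0.437), by 2.48 in PLC and 0.39 in 97H. CXCL2 was at 2.86, 6.10 and 4.80 FPKM in PLC with the CDK4/6 inhibitor, the XPO1 inhibitor and the combination, against 1.96 FPKM in the control, and at 1.82, 2.01 and 1.87 FPKM in 97H, against 1.27 FPKM in the control. CXCL2 stood above control in all 6 treated libraries of both lines, by 0.31 to 1.26. In Huh7 CXCL2 went the other way, at 0.163 FPKM with the CDK4/6 inhibitor, against 1.4997 FPKM in the control. CXCL3 was at 3.81, 7.23 and 3.09 FPKM in PLC, against 1.70 FPKM in the control, and in 97H at 0.908, 1.48 and 2.98 FPKM, against 1.44 FPKM in the control. CXCL1, CXCL2 and CXCL3 are near copies of each other. Of the 50-base windows in their transcripts 5.73%, 9.24% and 5.26% occur in another of the 3, so some reads cannot be assigned to 1 of them with certainty.

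The promoters of these 5 chemokine genes are shown because their genes lie together and all 5 carry the same kappaB-like motif, searched as GGANTTTCC on both strands in the 250 bases before the RefSeq start and printed in capitals. Each stretch runs from 110 to 41 bases before the start, on the strand of the gene, in GRCh38.p14: chr4:73740459-73740528 for CXCL8 (plus), chr4:73869283-73869352 for CXCL1 (plus), chr4:73998718-73998787 for CXCL5 (minus), chr4:74038730-74038799 for CXCL3 (minus) and chr4:74099236-74099305 for CXCL2 (minus).
CXCL8: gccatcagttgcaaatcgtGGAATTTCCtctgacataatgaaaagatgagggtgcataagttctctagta
CXCL1: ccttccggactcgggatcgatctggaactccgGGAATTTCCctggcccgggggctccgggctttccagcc
CXCL5: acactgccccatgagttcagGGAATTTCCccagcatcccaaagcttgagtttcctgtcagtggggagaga
CXCL3: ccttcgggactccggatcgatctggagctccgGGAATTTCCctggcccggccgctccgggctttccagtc
CXCL2: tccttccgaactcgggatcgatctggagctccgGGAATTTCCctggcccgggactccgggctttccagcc
The motif began 91 bases before the start in CXCL8, 90 in CXCL5, 78 in CXCL1 and CXCL3 and 77 in CXCL2. Aligned end to end with gaps allowed, the CXCL1 stretch matched that of CXCL2 at 66 of its 70 bases (94.3%) and that of CXCL3 at 64 (91.4%); between CXCL1 and CXCL2 the alignment needs gaps, since their motifs are offset by 1 base. Of the 39 genes 28 have a promoter in the RefSeq table, and 8 of the 28 hold the motif: these 5, IL32, IL6 and CXCL10. The motif is in 1.45% of all 35116 promoters of the table and in 2.11% of those of tested genes. IL6 and CXCL10 were too low to be tested, so the motif stands both in genes that were higher in treated PLC libraries and in genes near 0 FPKM there.

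**Figure D3:**
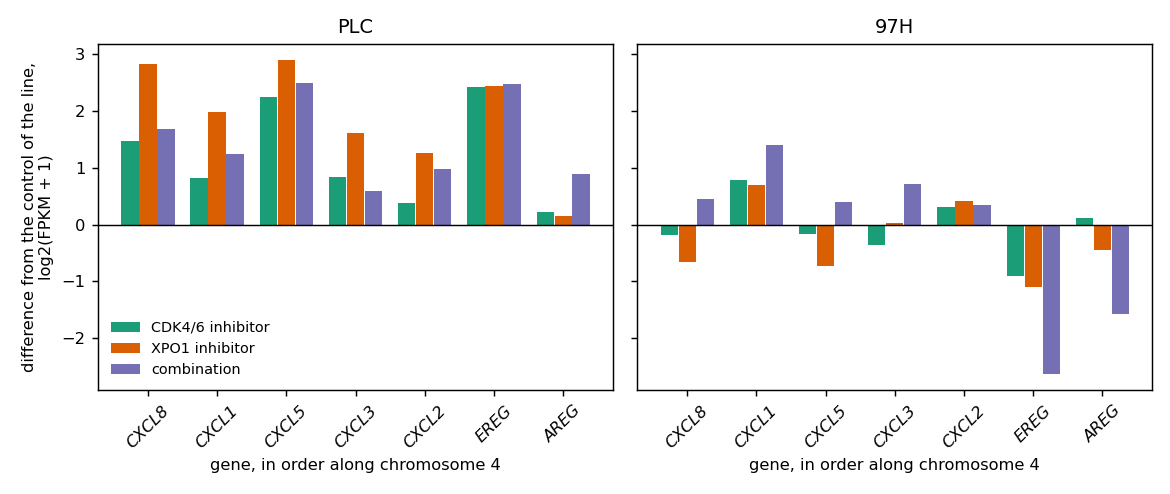
Difference of each treated library from the control of its line, log2(FPKM + 1), for the 7 genes in their order along chromosome 4, in PLC (left) and 97H (right), with 1 library per bar. In PLC all bars point up, to 2.90 for CXCL5 with the XPO1 inhibitor, and in 97H the EREG and AREG bars of the combination point down, to -2.63 and -1.56.

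EREG (epiregulin) and AREG (amphiregulin), ligands of the EGF receptor, end the same stretch of chromosome 4. EREG was at 16.9 FPKM with the CDK4/6 inhibitor, 17.0 FPKM with the XPO1 inhibitor and 17.7 FPKM with the combination in PLC, against 2.36 FPKM in the control. In 97H it was at 8.45, 7.35 and 1.86 FPKM, against 16.8 FPKM in the control. Treated PLC libraries were thus all high and treated 97H libraries all low for EREG, and Huh7 had at most 0.267 FPKM. AREG was at 54.4, 51.3 and 86.8 FPKM in PLC, against 46.2 FPKM in the control, and at 38.9, 25.9 and 11.4 FPKM in 97H, against 35.7 FPKM in the control. The combination library of AREG was the highest in PLC and the lowest in 97H. The interval holds 13 protein-coding genes, all in the table, of which 8 were tested. CXCL6, another neutrophil chemokine gene and the 1 tested gene there outside the set, was at 2.77, 4.83 and 0.912 FPKM in PLC with the CDK4/6 inhibitor, the XPO1 inhibitor and the combination, against 1.38 FPKM in the control. EREG, AREG and CXCL6 were chosen for this account after their values were seen.

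HBEGF encodes heparin-binding EGF-like growth factor, which is shed from the cell surface and binds the EGF receptor. In PLC it was at 4.41 FPKM with the CDK4/6 inhibitor, 6.10 FPKM with the XPO1 inhibitor and 7.80 FPKM with the combination, against 1.02 FPKM in the control. In 97H it was at 2.68, 3.07 and 4.32 FPKM, against 1.76 FPKM in the control. In Huh7 it was at 19.9 FPKM with the CDK4/6 inhibitor, against 3.87 FPKM in the control. All 7 treated libraries lay above the control of their line, and in PLC and 97H the order was the same: combination, XPO1 inhibitor, CDK4/6 inhibitor, control. The difference was 1.54 with the combination (SE 0.43, limma adjusted p = 0.180, n = 2 lines), 1.31 with the CDK4/6 inhibitor (SE 0.35, limma adjusted p = 0.470, n = 3 lines) and 1.19 with the XPO1 inhibitor (SE 0.43, limma adjusted p = 0.968, n = 2 lines). None of the 3 passed over all genes. HBEGF, IL32 and CX3CL1 were the 3 of 29 genes (10.3%) whose combination library was the highest of its line in both PLC and 97H, against 8.74% of all tested genes. Of the remaining growth factors FGF2 stayed at or under 1.90 FPKM and STC1 (stanniocalcin) at or under 0.0249 FPKM.

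Among the mononuclear cell chemokines CX3CL1, fractalkine, which tethers T cells and monocytes, was at 9.50, 10.9 and 15.3 FPKM in PLC with the CDK4/6 inhibitor, the XPO1 inhibitor and the combination, against 5.91 FPKM in the control. In 97H it was at 0.894, 0.777 and 1.15 FPKM, against 0.240 FPKM in the control, and in Huh7 at 67.0 FPKM with the CDK4/6 inhibitor, against 48.8 FPKM in the control. Every treated library was above the control of its line. CX3CL1 differed by 1.02 with the combination (SE 0.37, limma adjusted p = 0.301) and did not pass. CCL2, the main monocyte chemokine, was at 7.58, 8.66 and 10.8 FPKM in PLC, against 0.482 FPKM in the control, and at or under 0.323 FPKM in all 97H and Huh7 libraries. Its difference of 1.62 with the combination (SE 0.60, limma adjusted p = 0.311) was therefore 2.998 in PLC and 0.24 in 97H. CCL20, which draws T helper 17 cells, was lower in Huh7 with the CDK4/6 inhibitor, at 18.6 FPKM, against 90.4 FPKM in the control. CXCL10, an interferon-induced T cell chemokine, reached 1.53 FPKM in the Huh7 control and at most 0.0545 FPKM in the other lines. In PLC CCL20 was at 14.3, 25.6 and 10.2 FPKM, against 13.0 FPKM in the control.

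CXCL16, a membrane-bound chemokine that also takes up oxidised lipoprotein, was chosen after its values were seen. In PLC it was at 27.8, 108 and 73.5 FPKM with the CDK4/6 inhibitor, the XPO1 inhibitor and the combination, against 193 FPKM in the control. In 97H it was at 20.5, 21.8 and 42.3 FPKM, against 8.13 FPKM in the control. The treated libraries were all low in PLC and all high in 97H. In Huh7 it was at 20.6 FPKM with the CDK4/6 inhibitor, against 9.88 FPKM in the control. ANGPTL4, an inhibitor of lipoprotein lipase also chosen after its values were seen, showed the same opposition, at 2.49, 1.81 and 3.32 FPKM in PLC, against 7.42 FPKM in the control, and at 1.87, 2.68 and 5.37 FPKM in 97H, against 1.07 FPKM in the control. CXCL16 was also the 1 gene of 29 (3.45%) past 2-fold higher with the combination than with the CDK4/6 inhibitor in both lines, against 0.296% of all tested genes.

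**Figure D4:**
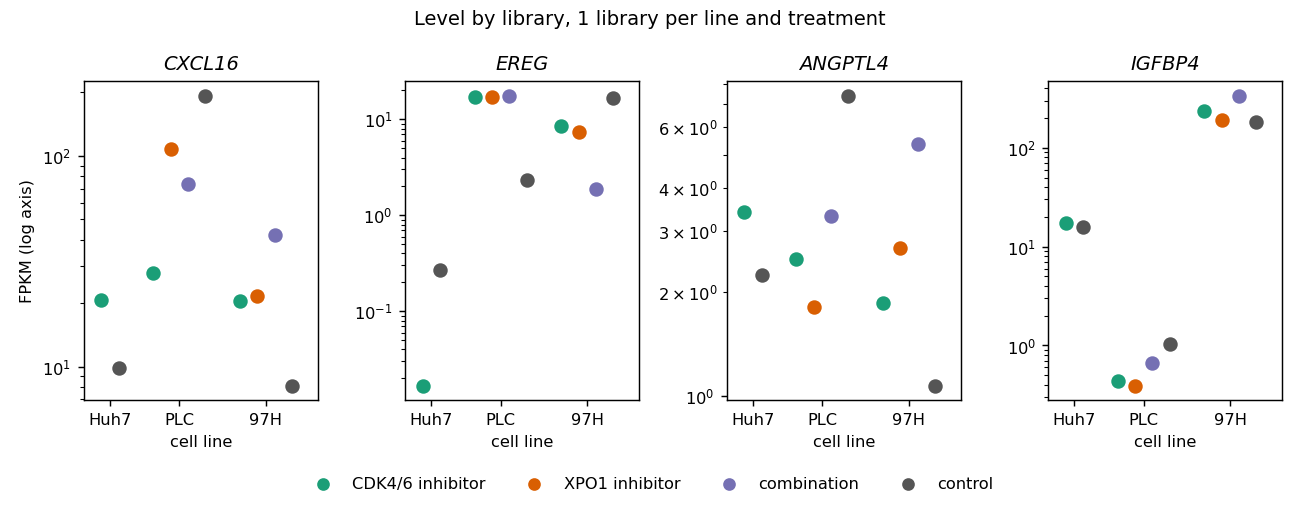
Level of CXCL16, EREG, ANGPTL4 and IGFBP4 in each library (points, FPKM on a log axis), by cell line and treatment, with 1 library per point. The treated points of CXCL16, ANGPTL4 and IGFBP4 lie below the control in PLC and above it in 97H, and those of EREG the other way round.

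Of the listed macrophage markers LYZ and CD68 were higher in every treated PLC library than in the PLC control. The list of 8 immune and macrophage markers summed to 117 FPKM with the CDK4/6 inhibitor, 259 FPKM with the XPO1 inhibitor and 218 FPKM with the combination in PLC, against 40.5 FPKM in the control, and to 49.4 to 82.2 FPKM over the 97H libraries. Of the 8 only CD68, LYZ and CD14 reached 1 FPKM in any library. LYZ (lysozyme) was at 52.6, 234 and 91.8 FPKM in PLC, against 17.8 FPKM in the control, and CD68 (a lysosomal protein) at 64.0, 24.3 and 126.6 FPKM, against 22.7 FPKM. The defining leukocyte marker PTPRC was at or under 0.0226 FPKM in every library, and CSF1R at or under 0.0872 FPKM. Fibroblast markers summed to at most 0.707 FPKM in PLC. In 97H they summed to 32.1 FPKM in the combination library, against 3.77 FPKM in the control. In Huh7 they summed to 143 FPKM with the CDK4/6 inhibitor, against 36.1 FPKM in the control. The 97H sums came mostly from LUM, and the Huh7 sums mostly from COL1A2 and LUM. In the 97H combination library COL1A2 and DCN were lower than in the 97H control, and the other markers of the list higher. Endothelial markers summed to at most 4.94 FPKM in any library, and biliary markers to 1.74 to 8.96 FPKM in PLC, under the sums of the other lines of at least 427 FPKM. Each library is of a single cell line, so these markers were read as genes of that line and not as a mix of tissue cells. Their part in the values of the 39 genes was not tested. In bulk RNA a change in the share of cells of a line that express a gene and a change in RNA per cell cannot be told apart.

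Colony-stimulating factors and MIF gave no call between treatments. CSF2 (GM-CSF) reached 2.10 FPKM in 97H and was listed at 0 in all Huh7 and PLC libraries. CSF1, the macrophage growth factor, was at 15.6 FPKM in PLC with the combination, 4.59 FPKM with the CDK4/6 inhibitor and 4.13 FPKM with the XPO1 inhibitor, against 3.43 FPKM in the control. In 97H CSF1 lay at 34.5, 30.8 and 26.8 FPKM with the CDK4/6 inhibitor, the XPO1 inhibitor and the combination, against 23.9 FPKM in the control. Only the PLC combination library stood apart in its line, and the difference of 1.03 (SE 0.50, limma adjusted p = 0.449) did not pass. MIF was lower in all 3 treated PLC libraries, at 1657, 1821 and 1235 FPKM, against 2678 FPKM in the control, while in 97H it lay on both sides of the control of 1426 FPKM. Without MIF the 38 other genes summed to 712, 893 and 916 FPKM in the treated PLC libraries, against 461 FPKM in the control, and to 775, 621 and 881 FPKM in those of 97H, against 613 FPKM. These sums depend mostly on the most abundant genes. With the combination IL32 was at 319.9 FPKM in PLC, against 59.2 FPKM in the control, and IGFBP4 at 338 FPKM in 97H, against 184 FPKM.

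IGFBPs bind insulin-like growth factors and set how much of them reaches their receptor. In PLC IGFBP4 lay between 0.391 and 1.02 FPKM, against 184 to 338 FPKM in 97H. IGFBP6 lay at or under 0.192 FPKM in PLC, against 42.8 to 61.1 FPKM in 97H, and IGFBP2 at or under 0.147 FPKM, against 31.3 to 66.7 FPKM. These 3 genes were near silent in PLC under every treatment and high in 97H, and Huh7 held 10.5 to 17.5 FPKM of each. The 97H combination library had 338 FPKM of IGFBP4 and 66.7 FPKM of IGFBP2, against 184 and 31.3 FPKM in the 97H control. IGFBP7 was the reverse, at 5.23 to 11.1 FPKM in PLC and at or under 0.0518 FPKM in 97H. In Huh7 the CDK4/6 inhibitor library was higher for IGFBP3, at 69.1 FPKM, against 30.1 FPKM in the control, and for IGFBP7, at 32.8 FPKM, against 13.2 FPKM.

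The plasminogen activator gene PLAU (urokinase) and its receptor gene PLAUR, which focus proteolysis at the cell surface, were genes of 97H too. PLAU lay at or under 0.0499 FPKM in PLC, against 18.7 to 29.4 FPKM in 97H, and PLAUR at or under 0.1001 FPKM, against 3.67 to 6.15 FPKM. The 4 libraries of the lines did not overlap for either gene, as for 16.5% of all tested genes with 97H higher. PLAUR reached the mean needed for testing only through 97H, so the direction of its difference was set by that filter. The treated 97H libraries of PLAU, at 29.4, 25.9 and 19.9 FPKM, all stood above the 97H control at 18.7 FPKM. PLAT, the tissue-type activator, reached 3.25 FPKM in 97H and 0.0887 FPKM in PLC, and SERPINB2, an inhibitor of both activators, at most 0.145 FPKM. TNFRSF1A, the main receptor for TNF, lay at 29.2 to 42.7 FPKM in PLC, against 121 to 172 FPKM in 97H, and was lower with the combination in both lines, at -0.53 in PLC and -0.42 in 97H (difference -0.47, SE 0.26, limma adjusted p = 0.518). TNFRSF1B, the other TNF receptor gene, reached 1.63 FPKM in 97H and 0.0540 FPKM elsewhere. TNFRSF11B (osteoprotegerin, a decoy receptor) was a gene of Huh7, at 25.3 FPKM with the CDK4/6 inhibitor, against 9.08 FPKM in the control.

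Set against each other over their 4 treatments, PLC and 97H differed in 22 of the 29 tested genes (75.9%), against 44.3% of all tested genes. In PLC 12 were higher (41.4%) and 10 lower (34.5%), beside 27.7% and 16.6% of all tested genes. The 4 libraries of a line come from the same line, so these p-values measure the spread over treatments and not over cultures. The roles split by line. Of 9 tested chemokine genes 8 were higher in PLC and none was lower, CXCL1 by 4.21 (SE 0.32, limma adjusted p = 1.48e-05) and CXCL8 by 3.94 (SE 0.49, limma adjusted p = 0.000221). Of 5 tested IGFBP genes 3 were lower in PLC and 1 was higher: IGFBP4 by -7.17 (SE 0.26, limma adjusted p = 2.29e-07), IGFBP6 by -5.47, IGFBP2 by -5.28 and IGFBP7 by 3.20. Both tested genes of the plasminogen system were lower, PLAU by -4.55 (SE 0.28, limma adjusted p = 4.76e-06) and PLAUR by -2.44, as were both tested TNF receptor genes. Of these TNFRSF11B, counted in the 22, reached the mean needed for testing only through Huh7, which is not compared here. It was at or under 0.0792 FPKM in PLC and 0.523 FPKM in 97H, so its call compares levels under 1 FPKM, given with no error. Of 4 interleukin genes IL32 (1.34) and IL18 (1.87) were higher and LIF (-3.18) and IL1B (-1.92, listed at 0 throughout PLC) lower. LIF, IL1B, PLAUR and CCL2 reached the mean needed for testing only through the line where they were high. The direction of their differences was therefore set by that filter. The median over all tested genes was 0.26 in the same comparison and shifted by -0.23 with median ratio scaling of the libraries, under which CXCL2 and AREG no longer passed. With no filter on low values IL18 (limma adjusted p = 0.0984) and CXCL16 (limma adjusted p = 0.115) no longer passed. AREG (1.15) also lost its call without either combination library, at 0.60. CXCL2 (0.77) lost it without any 1 of the CDK4/6 inhibitor, XPO1 inhibitor or combination libraries, at 0.62 to 0.88, and TNFRSF11B (-0.40) without any 1 of the control, XPO1 inhibitor or combination libraries, at -0.38 to -0.36. Counted by libraries alone, 9 of the 29 genes had all 4 PLC libraries above all 4 of 97H, beside 27.1% of all tested genes, 10 the reverse, beside 16.5%, and 10 overlapped. HBEGF, MIF, EREG, ANGPTL4, FGF2, CXCL3 and IGFBP3 did not pass between the lines.

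**Figure D5:**
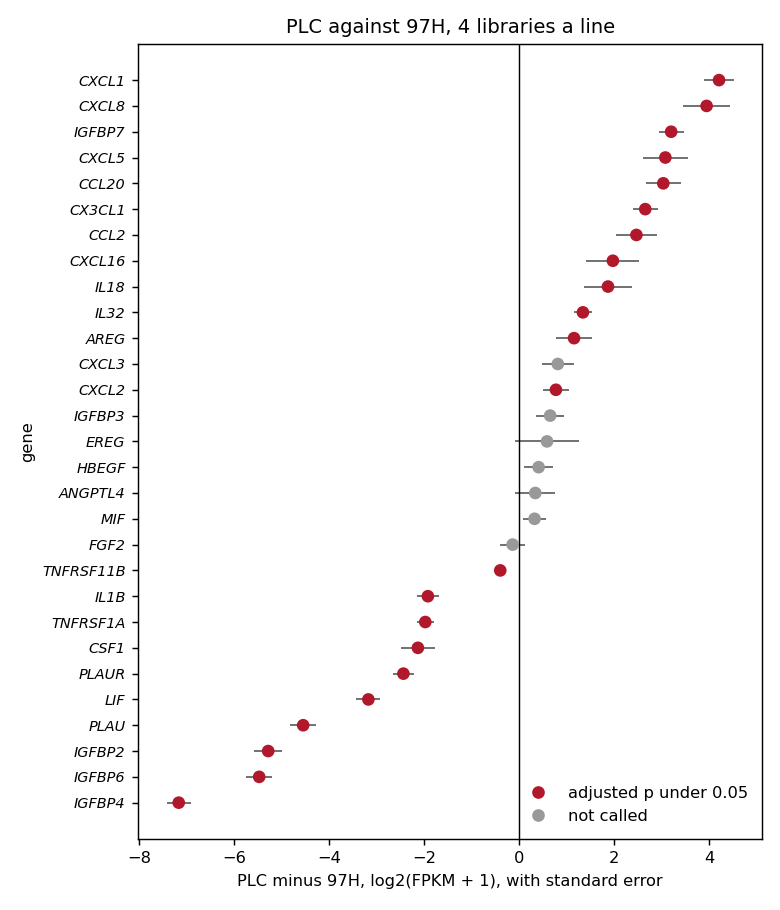
Difference of PLC from 97H for the 29 tested genes, log2(FPKM + 1), as the limma estimate (points) with its standard error (bars), over 4 libraries a line. Chemokine genes lie on the right, led by CXCL1 at 4.21, with IGFBP7 at 3.20; PLAU, PLAUR, IGFBP2, IGFBP6 and IGFBP4 lie on the left, ending with IGFBP4 at -7.17.

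The combination against each inhibitor alone asks what the second drug adds. No gene of the 29 and no gene of all 10477 was called in either comparison or for the interaction (0% in each). At an unadjusted limma p under 0.05 IL32 was the 1 gene of the 29 against the CDK4/6 inhibitor and against the XPO1 inhibitor, beside 3.29% and 4.96% of all tested genes, and there was none for the interaction, beside 0.573%. IL32 was higher with the combination than with the CDK4/6 inhibitor by 0.66 (SE 0.27, limma adjusted p = 1.0) and than with the XPO1 inhibitor by 0.95 (SE 0.27, limma adjusted p = 0.607), in both lines each time. The interaction, which is 0 where the log2 effects of the inhibitors add up, was -0.48 for IL32 (SE 0.38), -1.20 for CCL2 (SE 0.85) and -0.82 for CXCL1 (SE 0.63), none of them called. Over the 29 genes the median difference was 0.43 with the combination, against 0.07 over all tested genes. The same medians were 0.28 and 0.03 with the CDK4/6 inhibitor, and 0.28 and 0.10 with the XPO1 inhibitor. These 3 comparisons share their control libraries. Within PLC the CDK4/6 inhibitor library had 8 of the 29 genes past 2-fold above control, the XPO1 library 10 and the combination library 10, beside 18.2%, 16.5% and 11.9% of all tested genes. Within 97H these counts were 3, 1 and 7, beside 2.36%, 2.15% and 7.67%, and within Huh7 4 with the CDK4/6 inhibitor, beside 3.91%. Past 2-fold below control were 2, 1 and 2 genes within PLC, beside 5.29%, 6.04% and 7.46% of all tested genes, 0, 1 and 2 within 97H, beside 4.02%, 0.515% and 4.92%, and 3 within Huh7, beside 4.33%. In 97H 14 of the 29 genes had all 3 treated libraries above the control and 2 had all 3 below it, beside 27.9% and 32.9% of all tested genes. Past 2-fold above control in every line was none of the 29 genes with either inhibitor alone, beside 0.0764% of all tested genes with the CDK4/6 inhibitor and 0.458% with the XPO1 inhibitor.

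Genes around the set were read from lists, beside all tested genes, whose median with the combination was 0.07. Of all tested genes 0.305% were called higher with the combination and 0.487% lower. Of 47 receptors and partners of the 39 proteins 22 were tested and none passed with the combination, with a median of 0.31. The closest were IL18BP, the soluble inhibitor of interleukin 18, at 1.13 (SE 0.31, limma adjusted p = 0.167), and the receptor gene FGFR4 at -1.42 (SE 0.45, limma adjusted p = 0.224). The receptors of the neutrophil chemokines, CXCR1 and CXCR2, were at or under 0.0243 FPKM in every library. Of 56 other secreted genes of the phenotype 29 were tested and 2 rose, TIMP2 and MMP14, regulators of matrix breakdown, by 2.52 and 1.94 (limma adjusted p = 0.0345 each), with a list median of 0.60. Of 32 tested genes that control the secretory phenotype none passed, STAT3 at 1.38 (SE 0.36, limma adjusted p = 0.154) and JUN at 1.61 (SE 0.43, limma adjusted p = 0.162) coming closest. Of 14 genes that mark the state of the cells CDKN1A (p21) rose by 2.19 and BIRC5, CCNA2 and LMNB1 fell by 3.64, 3.02 and 2.89. With either the control or the combination library of PLC left out, no gene of the whole table was called with the combination, these included. No list had a call with either inhibitor alone, in the combination against either, or for the interaction.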

How the data were processed

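The authors deposited a table of FPKM for 20030 genes in 10 libraries. The submitters' processing notes name CASAVA 1.8.2, STAR 2.4.2g1, featureCounts and Subread, and the build GRCh38; the step from read counts to FPKM is not given there. RNA was taken with Trizol and prepared with a TruSeq RNA kit, per the labels' protocols. Depth is unknown, and low values place relative depth between 0.868 and 1.14 of the PLC combination library, from 2.93% to 10.4% of the low genes. In 27 entries a symbol turned into a date was restored from its gene ID.

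The test was limma (version 3.58.1, R 4.3.3; lmFit and eBayes with a variance trend, two-sided) on log2(FPKM + 1). It took every gene whose mean reached 1 FPKM, held the cell line as a block, and adjusted p-values by Benjamini-Hochberg over all 10477 tested genes. The CDK4/6 inhibitor against control used 10 libraries (4 residual degrees of freedom) and the other comparisons 8 (3 degrees); PLC against 97H had treatment as a covariate. The pairing by line comes from the labels; within a line, the deviations of the control and of the CDK4/6 inhibitor library from their group means correlated at 0.901 (Huh7), 0.665 (PLC) and 0.818 (97H). Within a line, differences have no test, and past 2-fold means at least 1 on the log2 scale.

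A gene was described library by library if it passed between treatments, was past 2-fold one way in every line of a comparison with control, had one of the 5 smallest p-values of the set there, or one of the 6 largest called differences between PLC and 97H; that rule gave CXCL8, CXCL1, CXCL2, CX3CL1, CCL2, IL18, IL32, IGFBP2, IGFBP4, IGFBP6, HBEGF and PLAU. Every other gene given library by library, such as CXCL5, CXCL3, IL1B, CSF1, MIF and CCL20, was added after its values were seen. From other lists the genes with the smallest p were named. The 39 genes, the lists and these rules were chosen with earlier results of these data known. Gene positions and promoters are from RefSeq on GRCh38.p14, transcript GC content, length and shared windows from GENCODE 29. Alternatives were another pseudocount, no filter, other scalings, no block, no variance trend, GC and length trends removed, all libraries in the fit, and each library left out. The result of 1 marker gene is not reported here.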

Additional observations from a re-analysis of the deposited data

Results flagged for a closer look

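Of the 29 tested genes 6 (20.7%) had all 3 treated libraries on one side of the control in PLC and on the other side in 97H, against 28.1% of all tested genes, so the set is not richer in such genes than the table. Each line has a single control that its 3 differences share, and the difference between the lines was not tested. Given as the mean log2 difference of the 3 treated libraries from the control, CXCL16 was at -1.65 in PLC and 1.60 in 97H. EREG was at 2.44 in PLC and -1.54 in 97H. ANGPTL4 was at -1.27 in PLC and 0.974 in 97H. IGFBP3 was at -0.697 in PLC and 0.416 in 97H. IGFBP4 was at -0.438 in PLC, where its level was at or under 1.02 FPKM, and 0.436 in 97H. FGF2, at or under 1.90 FPKM throughout, was at 0.885 in PLC and -0.267 in 97H.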

How the results depend on the processing

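The 1 call among the 29 genes with the combination depends on the processing. The count was 0 with no filter on low values, 0 with no replicate block for the cell line and 0 with no variance trend, 2 with GC content and length trends removed in the fit with the block, and 0 to 2 when 1 library was left out. For IL32 the limma adjusted p was 0.253, 1.0 and 0.0517 under the first 3 of these and ran from 0.00274 to 1.0 over all alternatives, with a difference of 1.81 to 2.39. HBEGF passed with GC and length trends removed (limma adjusted p = 0.0266), and IL18 without the 97H CDK4/6 inhibitor library (limma adjusted p = 0.0490). With a pseudocount of 0.1 the genes past 2-fold above control in both lines were 6 with the combination and 2 with the XPO1 inhibitor, against 3 and 0 with a pseudocount of 1. Over all tested genes the 83 calls with the combination ranged from 0 to 666, those against the CDK4/6 inhibitor from 0 to 56, against the XPO1 inhibitor from 0 to 73, and those of the XPO1 inhibitor against control from 0 to 2. The cause of these shifts was not tested. The other counts of called genes of the set kept within 1.5 times of their values, 19 to 24 for PLC against 97H in place of 22. Of the 22 genes 17 passed under every alternative, and CXCL2, AREG, TNFRSF11B, CXCL16 and IL18 did not. Among the 17 are LIF, IL1B, PLAUR and CCL2, whose direction was set by the filter on low values in the main fit. None of the 32 single-gene differences run under the alternatives reversed; other differences were not compared across them. Quantile normalization shifted the median of all tested genes by -0.17 for PLC against 97H and by -0.11 for the XPO1 inhibitor against control. With no read counts, levels under 1 FPKM carry no error, and 1 library per line and treatment limits every comparison.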
